A study of Mus musculus with 4 samples.

Results

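The nuclear genes for respiratory complexes III, IV and V were compared between Hepa1-6 cells labelled wild type and cells labelled knockout for the activin receptor gene Acvr2a. Members were all rows whose symbol begins with Uqcr, with Cox4 to Cox8 or with Atp5, together with Cyc1 and Cycs, leaving out symbols marked as pseudogenes (-ps). The rule used symbols only, with no measured value, and found 47 of 54838 gene rows: 9 for complex III, 19 for complex IV, 18 for complex V and 1 for cytochrome c. Of the complex IV rows, Cox6c2 is annotated as a processed pseudogene although its symbol does not say so, and it had no count. Hepa1-6 is a mouse hepatocellular carcinoma line. The NC group (Acvr2a wild type) and the KO group (Acvr2a knockout, which the series' design text describes as subclones) had 2 libraries of total RNA each. Neither the treatment of the cells nor the number of subclones behind the KO libraries is given in the labels, and nothing says that the libraries of a group came from separate cultures, so p-values measure only the spread between these libraries. The series title places the comparison in a study of lactate production and glycolysis in liver cancer.

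The respiratory chain passes electrons from complexes I and II through ubiquinone to complex III, from there on the small haem protein cytochrome c to complex IV, and from complex IV to oxygen. Complexes I, III and IV pump protons across the mitochondrial inner membrane, and complex V, the ATP synthase, lets them flow back through a rotating ring of c subunits and makes ATP. Most subunits of complexes III, IV and V are encoded in the nucleus, while a few core subunits are encoded in mitochondrial DNA, so each complex needs transcripts from both genomes. Liver is rich in these complexes, and tumour cells differ widely in how far they rely on them relative to glycolysis.

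Promoters of nuclear respiratory genes often hold sites for NRF1, for the ETS factor GABP, for the oestrogen-related receptors (ERR) and for YY1. RefSeq promoter windows on GRCm38.p6, 250 bases before to 50 after a start site, were found for 34 member genes (37 windows), and 4 motifs were searched on both strands: GCGCA and GCGC with any base between them for NRF1, CCGGAAG for ETS, TCAAGGTCA for ERR and AANATGGC for YY1. The windows of the 3 c-subunit genes are shown because these genes encode the same mature protein and all fell in KO, and those of Uqcrc1 and Cox6b1 because they had the lowest p of their complex among members with a window. Capitals mark motif matches on either strand, and the rest is in lower case, 5′ to 3′ on the strand of the gene.
Atp5g1: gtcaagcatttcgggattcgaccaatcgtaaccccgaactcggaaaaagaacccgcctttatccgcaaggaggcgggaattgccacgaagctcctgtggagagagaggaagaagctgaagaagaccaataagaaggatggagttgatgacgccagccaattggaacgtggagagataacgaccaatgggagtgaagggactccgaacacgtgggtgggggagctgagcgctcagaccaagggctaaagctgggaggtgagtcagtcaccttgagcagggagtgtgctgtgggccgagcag
Atp5g2: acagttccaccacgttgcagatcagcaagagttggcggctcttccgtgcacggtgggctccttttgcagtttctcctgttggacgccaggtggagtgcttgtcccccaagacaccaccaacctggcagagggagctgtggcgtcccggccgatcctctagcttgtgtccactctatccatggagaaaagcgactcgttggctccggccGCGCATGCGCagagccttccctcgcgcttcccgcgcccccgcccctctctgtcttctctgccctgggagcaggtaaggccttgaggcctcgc
Atp5g3: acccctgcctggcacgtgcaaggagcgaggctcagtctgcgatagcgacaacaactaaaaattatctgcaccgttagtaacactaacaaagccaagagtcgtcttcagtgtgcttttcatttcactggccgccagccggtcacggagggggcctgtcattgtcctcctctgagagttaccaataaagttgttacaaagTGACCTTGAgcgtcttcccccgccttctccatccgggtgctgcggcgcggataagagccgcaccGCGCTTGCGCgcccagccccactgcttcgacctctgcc
Uqcrc1: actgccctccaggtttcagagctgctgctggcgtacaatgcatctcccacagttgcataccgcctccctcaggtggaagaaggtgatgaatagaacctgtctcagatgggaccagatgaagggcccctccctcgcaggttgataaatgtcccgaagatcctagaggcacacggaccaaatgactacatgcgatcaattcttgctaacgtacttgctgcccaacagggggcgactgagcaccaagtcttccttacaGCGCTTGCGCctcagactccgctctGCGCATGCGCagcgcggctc
Cox6b1: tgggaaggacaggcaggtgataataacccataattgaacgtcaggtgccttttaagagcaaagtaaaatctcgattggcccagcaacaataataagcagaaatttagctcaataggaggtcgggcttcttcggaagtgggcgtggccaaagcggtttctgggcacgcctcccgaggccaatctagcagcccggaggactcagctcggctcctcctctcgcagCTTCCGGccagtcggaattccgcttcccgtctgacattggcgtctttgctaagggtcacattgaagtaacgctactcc

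The windows lie at chr11:96075582-96075881 (minus strand) for Atp5g1, chr15:102670998-102671297 (minus) for Atp5g2, chr2:73911277-73911576 (minus) for Atp5g3, chr9:108936398-108936697 (plus) for Uqcrc1 and chr7:30626065-30626364 (minus) for Cox6b1. Atp5g1 holds none of the 4 motifs in this window. Atp5g2 has an NRF1 match whose first base is at position -42 from the start site, and Atp5g3 has an ERR match at -52 and an NRF1 match at 13. Uqcrc1 holds NRF1 matches at 6 and 31, and Cox6b1 an ETS match at -28. Of the 37 member windows, 21.6% held the NRF1 motif against 4.6% of all 32851 windows, 27% against 8.86% held the ETS motif, 2.7% against 0.423% the ERR motif and 13.5% against 6.05% the YY1 motif. At least 1 of the 4 was found in 51.4% of member windows and 17.8% of all windows, with a median GC content of 56% and 52.7%. A match is a run of letters and not a measured binding site.

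The libraries held between 11597923 and 13910582 counts, and 12510 genes passed the filter on low counts. The targeted gene did not separate the labels: Acvr2a was counted 81, 108, 75 and 97 times in NC 1, NC 2, KO 1 and KO 2, with a fitted log2 fold change of -0.21 (SE 0.20, edgeR quasi-likelihood adjusted p = 0.433), so the group names follow the labels. CPM below is the count scaled to the size of its library. Of 6 hepatocyte markers, Alb and Trf were higher in KO (0.41 and 0.54 on the log2 scale), Afp and Hnf4a were lower (-1.21 and -0.995), Apoa1 had 17 to 39 counts and Ttr at most 1, with a summed level of 1630 to 1721 CPM in NC and 1753 to 1938 CPM in KO. Of the leukocyte markers Cd3e had 0 counts and Ptprc at most 2, Itgam had 2 to 10, Lyz2 3 to 13 and Csf1r 18.3 to 36.5, with Ptprc, Itgam and Lyz2 higher in both KO libraries in CPM, and the list summed to 2.02 to 3.47 CPM in NC and 3.41 to 4.33 CPM in KO. Among 5 fibroblast markers Thy1 had 0 counts and Col1a2 at most 1, while Dcn held 16689 to 22717 counts and Pdgfra (0.97) and Col1a1 (2.73) were higher in KO; the 5 summed to 1481 to 1490 CPM in NC and 1630 to 1709 CPM in KO. The 4 striated muscle markers had at most 13 counts. The part of these marker shifts in the results below was not tested, and in bulk RNA fewer cells of a kind and less RNA per cell cannot be told apart.

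Members of all 3 complexes fell in KO, most of them by less than 1.5-fold. Of the 47 members, 6 had no count in any library (Cox6b2, Cox6c2, Cox7b2, Cox8b, Cox8c and a second Atp5o entry), Cox4i2 and Cox6a2 fell under the filter, and 39 were tested. Of these 39, 23 fell in KO at an adjusted p under 0.05 (edgeR's quasi-likelihood test, Benjamini-Hochberg over all genes tested), or 59% against 18.2% of all genes tested (37.9% in either direction). The count of members that rose was 0, against 19.7% of all genes tested; at an unadjusted p under 0.05 1 member was higher and 26 were lower, and DESeq2 called 21 lower and 0 higher. The fitted log2 fold change was negative for 36 of the 39, against 50.4% of all genes, and its median was -0.30 (a level 18.9% lower), against -0.0037 over all genes. Of the 23, 4 (Cyc1, Atp5g1, Atp5g3 and Uqcrq) fell by more than 1.5-fold.

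**Figure D1:**
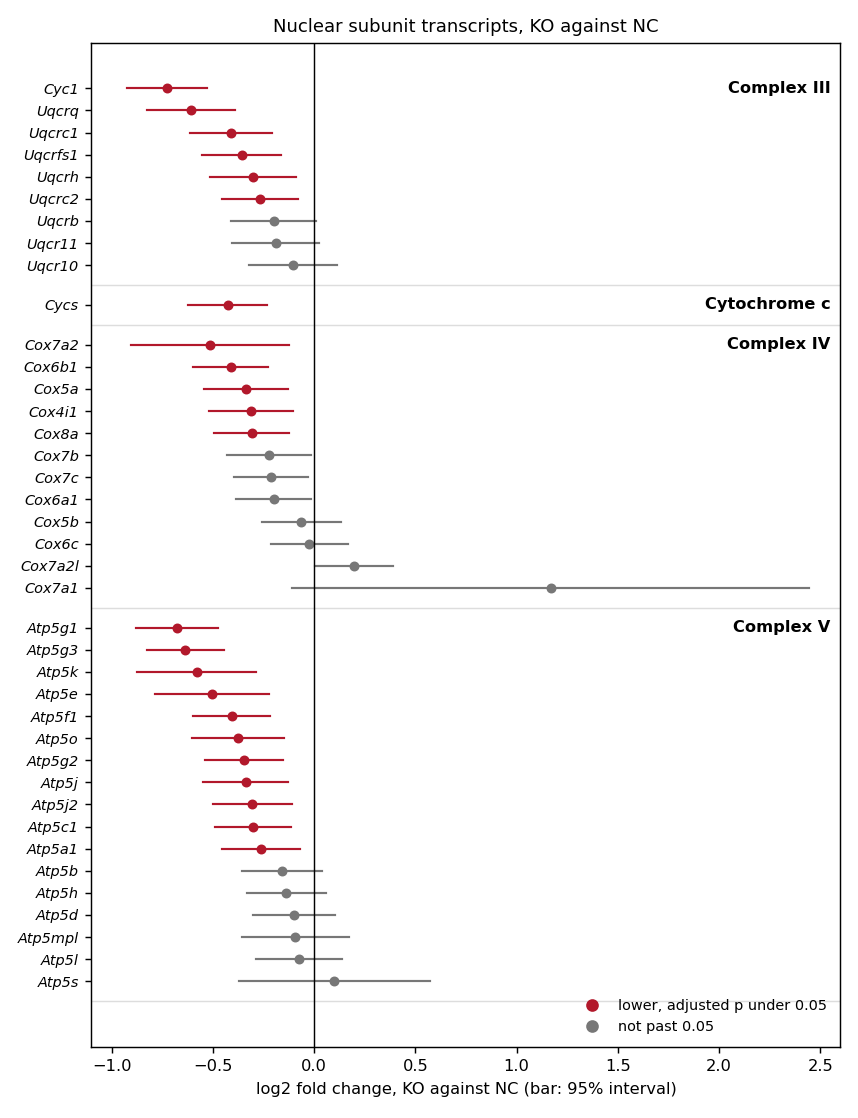
Fitted log2 fold change (KO against NC) of the 39 tested members, ordered within each complex, with 95% intervals as bars; red marks members lower at an adjusted p under 0.05 and grey the others. Points lie left of 0 for 36 members, and the interval of Cox7a1, which rests on 3 to 13 counts, is the widest.

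In CPM both KO libraries lay below both NC libraries for 30 of the 39 members and above them for 2 (Cox7a1 and Cox7a2l), against 34.7% and 34.8% of all genes tested. In the deposited TPM, which also divides by each library's effective transcript length, the same held for 24 and 2 members, against 25.1% and 37.6%. NC 1 held the highest CPM of 31 members and KO 2 the lowest of 27. Left out in turn, these were the libraries that lowered the count of members called most: 13 members were called without NC 1 and 16 without KO 2, against 21 without NC 2 and 23 without KO 1, where 22 were lower and Cox7a2l was called higher. Under every alternative on counts, leaving out each library included, 10 of the 23 stayed called: Cyc1, Uqcrq, Uqcrc1, Cycs, Cox6b1, Cox8a, Atp5g1, Atp5g3, Atp5k and Atp5f1. The other 13 calls were lost in at least 1 of them. Over all genes tested, too, the share called lower fell below the 18.2% of the full fit when any 1 library was left out. On the log2(TPM + 1) scale, limma called 6 members lower (Cyc1, Atp5g1, Atp5g3, Atp5k, Atp5e and Atp5f1) and 1 higher (Cox7a1), with 5.52% of all genes lower.

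Complex III, which moves electrons from ubiquinol to cytochrome c, had 9 members, all tested. All 9 had a negative log2 fold change (median -0.30), against 50.4% of all genes tested. The 6 that fell (66.7%, against 18.2% of all genes tested) included 2 of its electron carriers and both core proteins. Without NC 1, only 3 of the 9 were called.

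Cyc1 encodes cytochrome c1, the haem subunit that hands electrons to cytochrome c (chr15:76343523-76346260, plus strand, GRCm38). Its level was 138 and 119 CPM in the NC libraries against 79.9 and 75.1 CPM in the KO libraries. The groups did not overlap, and the gap was wider than the spread within either group. The log2 fold change was -0.73 (SE 0.097, adjusted p = 1.525e-06), the lowest of all 39 members, and the deposited levels of 180 and 158 TPM in NC against 105 and 107 TPM in KO had the same order. No exon of another gene overlaps Cyc1 and none of its 50-base words occurs in another annotated gene.

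Uqcrq encodes a small subunit next to cytochrome b, and its CPM was 129 and 101 in NC against 79.6 and 71.4 in KO. It fell by 0.61 in log2 (SE 0.11, adjusted p = 5.803e-05), with NC 1 well above NC 2. The core proteins lie on the matrix side of the complex. Uqcrc1 stood at 138 and 131 CPM in NC and at 111 and 91.4 CPM in KO, a fitted log2 fold change of -0.41 (SE 0.099, adjusted p = 0.001714). Uqcrc2 was at 124 and 126 CPM in NC and at 105 and 103 CPM in KO (log2 fold change -0.27, SE 0.091, adjusted p = 0.02159). Its CPM groups were apart, but in TPM KO 1 (91.0) lay between NC 1 (83.1) and NC 2 (92.9). Among the count fits of all 4 libraries, the Uqcrc2 call was lost with library totals and with effective length as an offset.

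Uqcrfs1, the Rieske iron-sulphur protein, had 111 and 102 CPM in NC against 86.0 and 80.0 CPM in KO, with a fitted log2 fold change of -0.36 (SE 0.094, adjusted p = 0.003623). Uqcrh, the hinge protein that helps cytochrome c1 meet cytochrome c, had 72.5 and 61.3 CPM in NC against 51.0 and 57.2 CPM in KO, with a fitted log2 fold change of -0.30 (SE 0.10, adjusted p = 0.02256). For both, every KO library was below every NC library. The call of Uqcrh was lost with DESeq2, with both treatments of length and without NC 1 or KO 1. The 3 remaining small subunits did not pass. Uqcr10, with the highest mean TPM of the complex and the smallest difference, had 782, 692, 817 and 620 TPM in NC 1, NC 2, KO 1 and KO 2, so the groups overlapped (log2 fold change -0.10, 95% interval -0.32 to 0.12). Uqcr11 (-0.19) and Uqcrb (-0.20) had adjusted p of 0.1602 and 0.1249.

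Cytochrome c, the soluble carrier between complexes III and IV that also takes part in apoptosis, is encoded by Cycs (chr6:50562563-50566538, minus strand). Its level was 178 and 165 CPM in NC against 136 and 119 CPM in KO. All KO values were below all NC values, and the log2 fold change was -0.43 (SE 0.095, adjusted p = 0.0008385). Of its 50-base words, 25.9% occur in other annotated genes. The closest of them, Gm10053, had 35.8 to 52.6 counts per library, and how reads divide between them is uncertain. Cyct, the testis form, had 0, 1, 0 and 1 counts across NC 1, NC 2, KO 1 and KO 2.

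**Figure D2:**
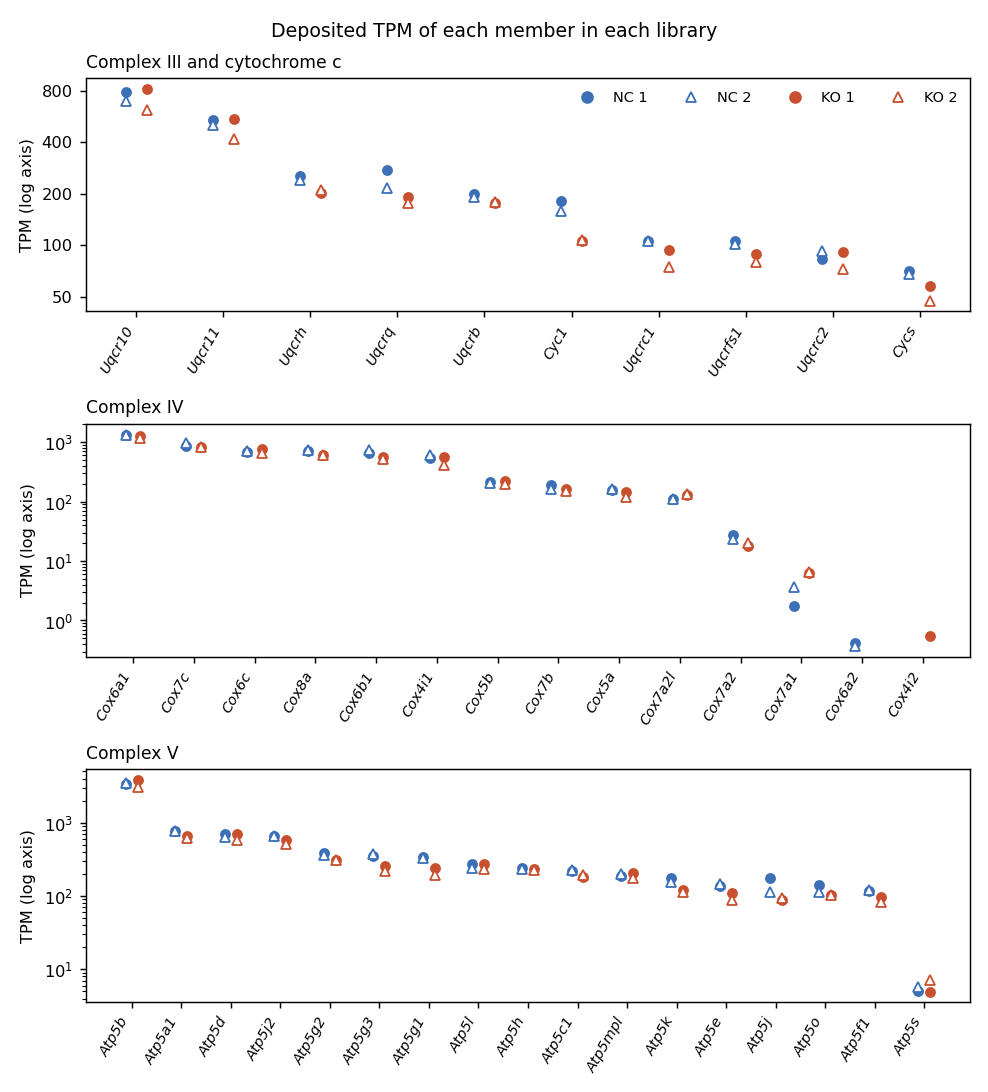
Deposited TPM (log axis) of each member with a count, by complex and ordered by mean level, for NC 1 and NC 2 (blue) and KO 1 and KO 2 (red); values of 0 are not drawn. Atp5b reaches 3054 to 3816 TPM, and below Cycs (47.4 to 70.3 TPM) lie Cox7a2, Cox7a1, Atp5s and the 2 members under the filter.

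Complex IV, cytochrome c oxidase, passes electrons to oxygen on subunits made in the mitochondrion, and its nuclear subunits surround and regulate that core. Of its 12 tested members 5 fell (Cox6b1, Cox8a, Cox5a, Cox4i1 and Cox7a2), or 41.7% against 18.2% of all genes tested. A negative log2 fold change was found for 10 of the 12, against 50.4% of all genes, and the median was -0.22. With effective length as an offset 2 of the 12 fell, against 10.6% of all genes. Of the 3 complexes it had the fewest calls, and the difference between complexes was not tested. Without KO 2 the count was 2 of 12.

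Cox6b1, which faces the intermembrane space where paired enzymes meet, had 234 and 241 CPM in NC against 180 and 176 CPM in KO. The groups were well apart, with a fitted log2 fold change of -0.41 (SE 0.090, adjusted p = 0.0006419). Cox8a, a small membrane subunit, had 204 and 203 CPM in NC against 159 and 169 CPM in KO (log2 fold change -0.31, SE 0.091, adjusted p = 0.00851). Cox4i1 and Cox5a join the mitochondrially made subunit I early in assembly. Cox5a had 62.2 and 60.6 CPM in NC against 52.0 and 45.1 CPM in KO, with a fitted log2 fold change of -0.34 (SE 0.10, adjusted p = 0.009584). Cox4i1 had 256 and 268 CPM in NC against 237 and 186 CPM in KO, with a fitted log2 fold change of -0.31 (SE 0.10, adjusted p = 0.01641). In TPM, Cox4i1 overlapped, since KO 1 (561) lay above NC 1 (548). The calls of Cox4i1 and Cox5a were lost with effective length as an offset.

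Cox6a1, the liver-type form of subunit 6a, had the highest mean TPM of the complex: 1309 and 1344 in NC against 1264 and 1156 in KO. Both KO values lay below both NC values, but the log2 fold change of -0.20 (SE 0.091) had an adjusted p of 0.08412. Cox7c (-0.21, adjusted p = 0.06125) and Cox7b (-0.22, adjusted p = 0.0838) were close to it. Cox6c had the smallest difference of any member, with 188, 178, 189 and 170 CPM in NC 1, NC 2, KO 1 and KO 2 (log2 fold change -0.02, 95% interval -0.21 to 0.17), and its sign changed with the scaling. Cox5b, at -0.06 (95% interval -0.26 to 0.13), also overlapped.

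Several complex IV subunits exist as alternative isoforms from separate genes, and these cells used the forms known from liver and most tissues. Cox4i1 made up 99.9% to 100% of the Cox4i TPM, and Cox4i2, the lung form, had 3 counts in KO 1 and 0 elsewhere. Cox6a2, the heart and muscle form, had 2, 2, 0 and 0 counts across NC 1, NC 2, KO 1 and KO 2. Cox8b, the heart and muscle form of subunit 8, and the testis forms Cox6b2 and Cox8c had 0 counts in every library, where 3 counts per library is the most that a count of 0 allows. Cox7b2 had 0 as well.

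The Cox7a group was the exception in using 3 genes. Cox7a2l encodes a factor that joins complexes III and IV into supercomplexes, Cox7a2 the form of subunit 7a found in liver, and Cox7a1 the heart and muscle form. Cox7a2 was low in all libraries, at 10.4 and 8.88 CPM in NC against 6.38 and 7.03 CPM in KO, and fell by 0.52 in log2 (SE 0.19, adjusted p = 0.03265). That call was lost with DESeq2, with both treatments of length and without NC 1, KO 1 or KO 2. Cox7a2l went the other way, with 86.3 and 82.0 CPM in NC against 91.8 and 101 CPM in KO, but did not pass with all libraries (log2 fold change 0.20, SE 0.094, adjusted p = 0.1008). Cox7a1 was counted 3 and 7 times in NC against 11 and 13 times in KO, and its log2 fold change of 1.17 (95% interval -0.11 to 2.44, adjusted p = 0.1222) did not pass in the count fit.

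As shares of the group's TPM, Cox7a2 took 19.5% and 17.4% in NC against 11.7% and 12.3% in KO, and Cox7a2l took 79.2% and 80.0% in NC against 84.1% and 83.6% in KO. Neither share overlapped between groups, and the exact two-sided permutation p of 0.333 is the smallest that 2 against 2 can give. Counted in expected counts, the Cox7a2 share moved by -3.77 percentage points against -6.41 in TPM. Cox7a2l shares 13.8% of its 50-base words with the predicted gene Gm6969, which held 977, 992, 1079 and 1274 counts across NC 1, NC 2, KO 1 and KO 2, nearly as many as Cox7a2l itself (981, 1136, 1210 and 1364). How these reads divide between both genes is uncertain. Cox7a2 shares no such word with another gene.

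**Figure D3:**
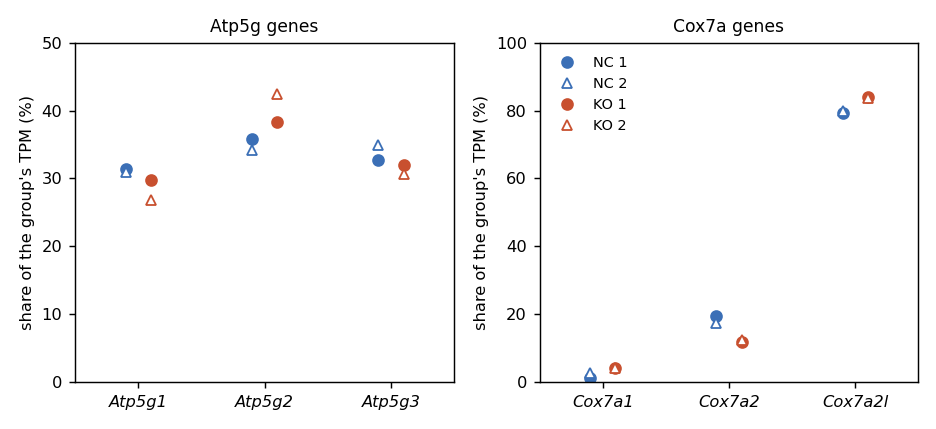
Share of each isoform gene in the summed TPM of its group (percent), for NC 1, NC 2, KO 1 and KO 2; left the 3 c-subunit genes, right the 3 Cox7a genes. The share of Atp5g2 is higher in both KO libraries (38.3% and 42.4%) than in both NC libraries (35.8% and 34.2%), and that of Cox7a2 is lower.

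Complex V, the ATP synthase, had 17 tested members, of which 11 fell, with a median log2 fold change of -0.31. The 11 were 64.7% of those tested, against 18.2% of all genes. Among the 17, Atp5s encodes a coupling factor and not a structural subunit; without it 11 of 16 fell and the median was -0.32. By position in the enzyme, 3 of 3 genes of the c ring and 3 of 4 of the peripheral stalk fell. So did 3 of 5 of the catalytic head with its central stalk, and 2 of 4 small membrane subunits. Each part holds few genes, and a difference between parts was not tested. Without NC 1 the count fell to 5 of 17.

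The c ring is the rotor through which protons pass, and 3 genes encode its subunit with different import signals. Atp5g1 (chr11:96068852-96075670, minus strand) had 129 and 116 CPM in NC against 81.7 and 71.1 CPM in KO, with a fitted log2 fold change of -0.68 (SE 0.098, adjusted p = 4.984e-06). Atp5g3 (chr2:73908447-73911326, minus strand) had 159 and 158 CPM in NC against 107 and 96.8 CPM in KO, with a fitted log2 fold change of -0.64 (SE 0.093, adjusted p = 6.127e-06). Atp5g2 (chr15:102662864-102672352, minus strand) had 177 and 157 CPM in NC against 129 and 134 CPM in KO, with a fitted log2 fold change of -0.35 (SE 0.094, adjusted p = 0.004679). No KO library reached the level of an NC library in any of the 3.

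Per length, the 3 genes were used about equally in NC, and Atp5g2 took the largest share in KO. Its share of their summed TPM was 35.8% and 34.2% in NC against 38.3% and 42.4% in KO, while Atp5g1 took 31.4% and 30.9% against 29.8% and 26.9%, and Atp5g3 32.8% and 35.0% against 31.9% and 30.7%. These shares did not overlap between groups (exact two-sided permutation p = 0.333 for each, the smallest possible). Atp5g2 shares 38.4% of its 50-base words with other genes, chiefly Gm10175 at 31.2 to 89.6 counts, Atp5g1 shares 10.2%, and Atp5g3 shares none.

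The peripheral stalk holds the head still while the ring turns. Atp5f1, its subunit b, had 134 and 129 CPM in NC against 104 and 93.8 CPM in KO (log2 fold change -0.41, SE 0.094, adjusted p = 0.001115). Atp5o, the OSCP subunit at the top of the stalk, was 79.7 and 59.9 CPM in NC against 53.1 and 54.3 CPM in KO (log2 fold change -0.37, SE 0.11, adjusted p = 0.009069), so NC 1 stood well above the other 3 libraries. Atp5j, coupling factor 6, had 53.0 and 49.2 CPM in NC against 40.5 and 40.3 CPM in KO (log2 fold change -0.34, SE 0.10, adjusted p = 0.009732). Its TPM of 176 in NC 1 against 112, 88.3 and 93.6 in NC 2, KO 1 and KO 2 goes with an effective length of 320.4 bases in NC 1 against 478 to 530 in the others, and its exons overlap those of Gabpa on the other strand. With effective length as an offset, the call of Atp5o was lost. Atp5h, subunit d, was not called (-0.14, adjusted p = 0.264).

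In the head, the alpha and beta subunits form the catalytic ring and gamma, delta and epsilon the central stalk. Atp5e, epsilon, had 24.9 and 24.3 CPM in NC against 19.4 and 15.3 CPM in KO and fell by 0.51 in log2 (SE 0.14, adjusted p = 0.004718). Atp5c1, gamma, fell by 0.30 (adjusted p = 0.01068) and Atp5a1, alpha, by 0.26 (adjusted p = 0.02752), and neither overlapped between groups. Atp5b, beta, carries the catalytic sites and had the highest TPM of all members. Its level was 3338 and 3486 TPM in NC against 3816 and 3054 TPM in KO, so the KO libraries lay on either side of NC. In CPM it was 1841 and 1812 in NC against 1733 and 1539 in KO (log2 fold change -0.16, SE 0.097, adjusted p = 0.2041). The deposited mean length of Atp5b was 802 bases, while its longest annotated transcript has 1916, which raises its TPM relative to a full-length count. Atp5d, delta, was at -0.10 (adjusted p = 0.4494).

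Among the small membrane subunits, which shape the dimer and the crista edge, Atp5k (subunit e) had 23.5 and 19.1 CPM in NC against 14.3 and 14.1 CPM in KO. Both KO libraries were lower, and the log2 fold change was -0.58 (SE 0.14, adjusted p = 0.002163). Atp5j2 (subunit f) fell by 0.31 (SE 0.094, adjusted p = 0.01205). Atp5l (subunit g) showed the smallest difference of the complex, with 80.1, 65.8, 72.2 and 66.2 CPM in NC 1, NC 2, KO 1 and KO 2 (log2 fold change -0.07, 95% interval -0.28 to 0.14). Atp5mpl was at -0.09 (adjusted p = 0.6051). Atp5s, at 5.08 and 5.75 TPM in NC against 4.96 and 7.09 TPM in KO, was at 0.10 (adjusted p = 0.7686).

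Summed over members, each complex had a lower mean in KO, by an amount that depended on the unit. Complex III summed to 2521 and 2297 TPM in NC against 2313 and 1933 TPM in KO, a mean difference of -11.9%, and KO 1 lay between the NC libraries (exact two-sided permutation p = 0.667). In CPM the same genes summed to 1022 and 903 in NC against 791 and 713 in KO, a difference of -21.9% with no overlap. On average in NC, Uqcr10 and Uqcr11, neither of them called, held 737 and 518 of 2409 TPM, but 134 and 98.2 of 962 CPM. Complex IV summed to 5484 and 5798 TPM in NC against 5300 and 4833 TPM in KO (-10.2%, exact permutation p = 0.333). Complex V summed to 8224 and 8161 TPM in NC against 7995 and 6815 TPM in KO (-9.62%, exact permutation p = 0.333), of which Atp5b alone makes a large part; without Atp5b the difference was -16.9%. Without KO 2 the complex V difference was only -2.42%, and without KO 1 it was -16.8%; for complex III the same 2 values were -3.98% and -19.8%, and for complex IV -6.05% and -14.3%.

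**Figure D4:**
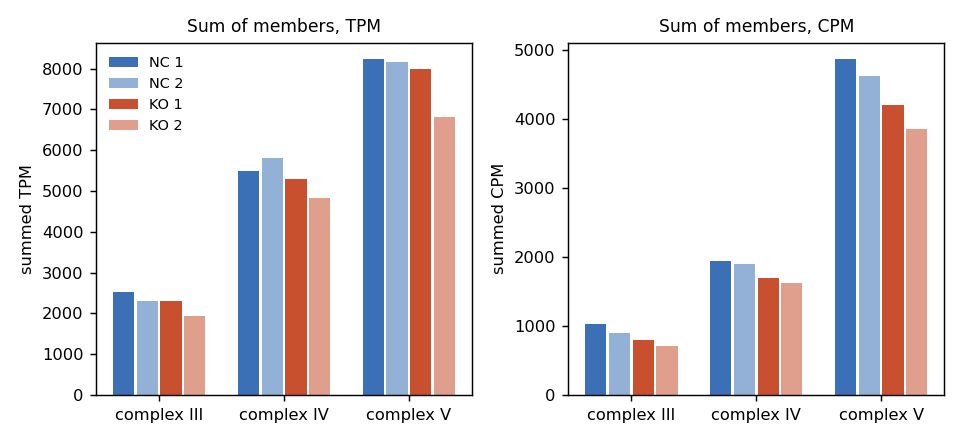
Sum over the members of each complex in each library, in deposited TPM (left) and in CPM (right); bars start at 0, blue is NC and red KO, and the paler bar of each pair is replicate 2. KO 2 is the lowest library in each group of bars, and in TPM KO 1 lies close to NC.

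Members are short transcripts, with a median length of 692.9 bases against 2347 for all genes tested, and in these libraries short genes leaned lower in KO. The 679 tested genes under 750 bases had a median log2 fold change of -0.17, with 24.9% called lower, and those of 3000 bases or more had 0.09, with 13.1% called lower. With the trend against length removed, 21 of the 39 were called lower, where 25.7% of all genes were, and their median was -0.26 against -0.09 for all genes. With each library's effective length as an offset, 17 of 39 were called, against 10.6% of all genes lower. The median effective length of the tested members was 422.7, 474, 477.6 and 449.2 bases for NC 1, NC 2, KO 1 and KO 2. These medians fell on different genes: Atp5j2 in NC 1, Atp5g3 in NC 2 and KO 1, and Uqcrq in KO 2. Gene by gene, the ratio of effective length in KO to that in NC had a median of 0.9973 over the 39 tested members. Over all genes tested it was 0.9983.

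**Figure D5:**
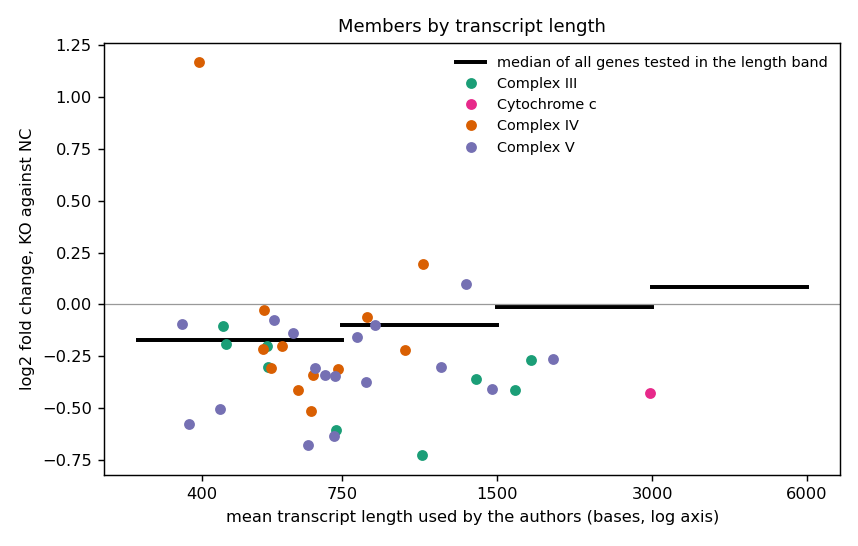
Log2 fold change (KO against NC) of the 39 tested members against the mean transcript length the authors used (log axis), coloured by complex; black bars give the median of all genes tested in 4 length bands. Of the 24 members under 750 bases 18 lie below the band median of -0.17, and Cycs, the longest member, lies at -0.43.

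Sequence shared with other genes makes a count uncertain, so the members were also counted without such genes. The 26 tested members with at most 5% of their 50-base words in another annotated gene had 18 calls (69.2%) and a median of -0.31. The 27 whose exons overlap no other gene had 15 calls (55.6%) and a median of -0.30. All these calls were lower in KO, as for 18.2% of all genes tested.

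Of the 3 tested genes for proteins of these complexes that the symbol rule misses, 2 fell (66.7%, against 18.2% of all genes tested). Ndufa4, named for complex I but assigned to complex IV, had 1077, 1179, 963 and 923 counts across NC 1, NC 2, KO 1 and KO 2 and fell by 0.35 in log2 (SE 0.096, adjusted p = 0.00564). Usmg5, a membrane subunit of complex V, had 1777, 2125, 1624 and 1665 counts in the same order and fell by 0.33 (SE 0.091, adjusted p = 0.005334). Atpif1, the inhibitor that stops complex V from running backwards, was at -0.03 (SE 0.091, adjusted p = 0.8086), with groups that overlapped in CPM.

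The subunits encoded in mitochondrial DNA did not share 1 direction: 2 of 6 fell (33.3%) and 1 rose. Of all genes tested, 18.2% fell and 19.7% rose. mt-Cytb, the cytochrome b of complex III, had 93480, 99702, 71564 and 91142 counts across NC 1, NC 2, KO 1 and KO 2 (log2 fold change -0.34, SE 0.11, adjusted p = 0.01485). Of the 6 it alone had groups that did not overlap in CPM, lower in KO as for 34.7% of all genes tested. mt-Atp6 (3306, 1944, 2315 and 1132 counts) was called lower at -0.73 (adjusted p = 0.009717) and mt-Co2 (14163, 8007, 21738 and 14120 counts) higher at 0.56 (adjusted p = 0.02362). In both, libraries of the same group differed by more than 1.5-fold and the groups overlapped, and with the robust fit only 1 of the 6 was called. mt-Co1 (367050, 422454, 355040 and 440861 counts), mt-Co3 (2180, 2744, 4581 and 2275 counts) and mt-Atp8 (1488, 1470, 816 and 2039 counts) were at -0.08, 0.40 and -0.15 and did not pass. Nuclear copies of mitochondrial genes can share these reads, so the levels are uncertain.

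Factors that build the complexes had a median log2 fold change of -0.26, with 10 of 34 tested called lower (29.4%, against 18.2% of all genes). For complex III, 2 of 6 fell: Uqcc2 and Uqcc1, which act together on newly made cytochrome b, by 0.61 (SE 0.14, adjusted p = 0.0009167) and 0.29 (SE 0.11, adjusted p = 0.03771). Lyrm7, a chaperone of the Rieske protein, had 20, 40, 46 and 59 counts across NC 1, NC 2, KO 1 and KO 2 and was at 0.74 (adjusted p = 0.06261). For complex IV, 5 of 23 fell (21.7%, close to the share over all genes), with the lowest p for Lrpprc, which stabilises mitochondrial messenger RNAs (-0.50, adjusted p = 0.0001456), Sco2, which delivers copper (-0.75, adjusted p = 0.001445), and Cox15, an enzyme of haem a synthesis (-0.39, adjusted p = 0.002739). For complex V, 3 of 5 fell: Atpaf1 and Atpaf2, chaperones of the beta and alpha subunits (-0.57, adjusted p = 0.0008889, and -0.37, adjusted p = 0.02799), and Tmem242, a c-ring assembly factor (-0.53, adjusted p = 0.008928). Without NC 1, 6 of the 34 were called.

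Of 16 regulators of respiratory genes and factors of complex IV, 4 fell and 1 rose; the 25% lower is near the 18.2% of all genes. Ppargc1a, the coactivator best known for driving mitochondrial biogenesis, was counted 111 and 148 times in NC against 68 and 84 times in KO (log2 fold change -0.85, SE 0.19, adjusted p = 0.001061). Its relative Pprc1 was counted 2120 and 2864 times in NC against 1864 and 1625 times in KO (log2 fold change -0.59, SE 0.098, adjusted p = 3.209e-05). The third relative, Ppargc1b, was counted 53 and 50 times in NC against 77 and 82 times in KO and did not pass (0.54, adjusted p = 0.08033). Higd2a and Chchd2, which act on complex IV, fell by 0.32 (adjusted p = 0.01042) and 0.27 (adjusted p = 0.02899). Higd1a, a hypoxia-responsive relative of Higd2a, rose by 0.46 (adjusted p = 0.009221). In TPM Higd1a overlapped, since KO 1 (13.1) lay between NC 2 (11.3) and NC 1 (13.7). The DNA-binding factors whose motifs were searched, Nrf1, Gabpa, Esrra and Yy1, were not called, with log2 fold changes of -0.01, -0.12, -0.11 and -0.01. Gabpb1, also on the list, was at -0.27 (SE 0.11, edgeR adjusted p = 0.0529) and was not called either. It had 43.9 and 39.2 CPM in NC against 33.6 and 35.3 CPM in KO. Both KO libraries lay below both NC libraries, as for 34.7% of all genes tested.

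The other complexes of the chain are set beside these for scale. Of 37 tested nuclear subunit genes of complex I, counted without Ndufa4 and the Ndufaf assembly factors, 15 fell and 1 (Ndufv3) rose. The 15 were 40.5% of those tested, against 18.2% of all genes lower and 19.7% higher. The median log2 fold change of the 37 was -0.25, and their summed TPM differed by -13.0%. Of the 4 genes of complex II, 2 fell (50%, against 18.2% of all genes), with a median of -0.25. No test was made of a difference between complexes.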

How the data were processed

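RNA of 4 Hepa1-6 libraries (2 NC, 2 KO, grouped by title) was sequenced with a directional kit, per the labels. STAR, RSEM and the build GRCm38 (mm10) are named in the submitters' processing notes; versions and the strand setting are not given in the sources used here. The authors deposited 1 gene table per sample with expected counts, TPM, FPKM and lengths, per the file headers; FPKM was not used. RSEM divides reads that fit several genes, so close copies can exchange counts.

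Expected counts were rounded and fitted over the whole table with edgeR 4.0.16 in R 4.3.3 (filterByExpr, TMM, glmQLFit and glmQLFTest, group as the only term), with Benjamini-Hochberg adjustment and a threshold of 0.05. Library totals were 11597923 to 13910582 counts, CPM divides by these totals times the TMM factors (0.981 to 1.02), and a count of 0 allows up to 3. Intervals cover 95%, for counting error and the shared spread only. TPM entered limma 3.58.1 as log2(TPM + 1), where fold changes of low genes are understated. Summed TPM and shares were compared by exact permutation. DESeq2 1.42.0, other scalings, filters, length terms, a replicate block and leaving out each library were alternatives; sums in CPM, shares of counts and the complex I count without Ndufa4 and Ndufaf genes were added after seeing the data. Samples of a group were no repeats of 1 library (chi-square per degree of freedom 7.16 and 10.03). The test was tested on simulated data, with 50 of 12510 genes changed at each size. It called 24% of genes changed 1.25-fold with the right sign, 52% at 1.5-fold and 86% at 2-fold. Among unchanged genes it called 12. Few genes were changed there, so these shares need not hold for the real data. Annotation is GENCODE M21, to which all 47 members matched without the ID version and 46 with it. Promoters are RefSeq's.

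Named with values are, per complex, up to 6 called members with the lowest p, the member with the highest TPM, that with the smallest difference, and all isoform genes. Of the lists, they are up to 3 assembly factors per complex, every subunit outside the symbol rule or encoded in mitochondria, and called regulators. Other members are given by log2 fold change. Ppargc1b, Nrf1, Gabpa, Gabpb1, Esrra, Yy1 and Ndufv3 fall outside this rule and were chosen after their values were seen. The members and all lists were chosen with earlier results of these data known.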

Additional observations from a re-analysis of the deposited data

How the results depend on the processing

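With 2 libraries a group, the data limit what can be called: groups of 2 are too small for the check of outlying samples, and no exact test can pass. The labels do not say whether the replicate numbers pair the libraries. Deviations of NC 1 and KO 1 from their group means had a correlation of -0.012 over genes tested. A value near 0 cannot show that the libraries were unpaired. With the replicate block 23 members were called, as without it, and 5 of the 6 mitochondrially encoded genes, against 3 without it. Between 21 and 23 members were called with upper-quartile scaling, library totals, DESeq2, no filter, the robust fit and the length trend removed. On log2(TPM + 1) and on log2(TPM + 0.1) alike, 7 members were called (complex III 1, IV 1, V 5), with 3 assembly factors and 0 mitochondrially encoded genes or regulators. The call in complex IV was Cox7a1, higher in KO, so no complex IV member was called lower on these scales. On those scales in turn 1 and 0 subunits outside the symbol rule, 13 and 12 genes of complexes I and II (Ndufa4 and Ndufaf genes included here), and 2158 and 2099 of all genes were called. The median of members was -0.25 on both, and that of complex IV -0.15. The median of all genes was 0.060 and 0.070 on these scales, against -0.0037 in the main fit. On log2(TPM + 1) without a filter 0 genes were called in every one of these sets, with 18 members at an unadjusted p under 0.05. The medians of members and of complex IV were then -0.25 and -0.15, and that of all genes was 0.037. With effective length as an offset, complex IV had 2 calls, assembly factors 5, mitochondrially encoded genes 0, regulators 3 and all genes 2892. DESeq2 called 6 assembly factors, 1 mitochondrially encoded gene and 3 regulators, and the robust fit 1 mitochondrially encoded gene. The complex IV median was -0.18 with library totals and -0.17 with the length trend removed, where all genes had medians of 0.028 and -0.092. In CPM the complex III sum differed by -21.9%, and in counts the Cox7a2 share by -3.77 points. The cause of these differences was not tested.

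Some small differences changed sign. Atp5b was at 0.00084 on log2(TPM + 1), filtered or not, and 0.00083 on log2(TPM + 0.1). Atp5mpl was at 0.0045 with the length trend removed. Cox6c was at 0.00051 with upper-quartile scaling, 0.0086 with library totals, 0.027 on the TPM scales and 0.048 with the length trend removed. Atpif1 was at 0.016 on the TPM scales and 0.038 with the length trend removed. None of these passed the threshold.

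Leaving out each library in turn gave 13 to 23 members (complex III 3 to 7, IV 2 to 5, V 5 to 10), 6 to 11 assembly factors, 1 to 2 subunits outside the symbol rule, 2 to 5 mitochondrially encoded genes, 14 to 26 complex I and II genes and 2 to 6 regulators. The median ranged from -0.32 to -0.25 for members, -0.42 to -0.28 for complex III, -0.25 to -0.19 for IV and -0.36 to -0.25 for V. Where 1 library was left, it was assumed to vary like the other group. Over all genes tested, fewer were called in each of these fits than with all libraries. The sign changed without NC 1 for Atp5d (0.0048), Atp5l (0.066), Cox6c (0.0083) and Uqcr10 (0.031), without KO 2 for Cox5b (0.025), Cox6c, Uqcr10 and Atp5s, without KO 1 for mt-Atp8, mt-Co1 and mt-Co3, and without NC 2 for Atpif1. The ranges were -0.21 to 0.0048 for Atp5d, -0.21 to 0.066 for Atp5l, -0.089 to 0.26 for Atp5s, -0.16 to 0.025 for Cox5b, -0.10 to 0.047 for Cox6c, -0.27 to 0.044 for Uqcr10, -0.088 to 0.019 for Atpif1, -0.94 to 0.35 for mt-Atp8, -0.22 to 0.056 for mt-Co1 and -0.21 to 0.83 for mt-Co3.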
